A study of Mus musculus with 16 samples.

Results

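Astrocyte ribosomes were precipitated from the striatum of 4 mice given a control virus and 4 mice given a virus for PMCA, and the RNA bound to them was compared between the treatments. PMCA stands here for hPMCA2w/b, the w/b splice form of human plasma membrane calcium ATPase 2, which the labels describe as a protein that suppresses calcium signals. The mice carried the RiboTag allele, on a B6 background, and Aldh1l1-Cre/ERT2, on an FVB background backcrossed to C57BL/6N. The control libraries came from mice Y481, Y482, Y483 and Y485 and the PMCA libraries from mice Y486, Y487, Y489 and Y490, 1 precipitate (IP) library per mouse, so 8 of the 16 libraries of the series were used. Both treatments shared the genotype and a striatal virus, and the control virus is described only as coding for a control protein. Age, the time after injection and the induction of the Cre are not stated in the labels. Of 13277 genes listed, 7094 were tested, a gene needing the worth of about 10 reads, at the median size of an IP library, in 4 or more of these 8.

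RiboTag places a haemagglutinin tag on a protein of the large ribosomal subunit wherever Cre recombinase has been active, and antibody against the tag then recovers ribosomes with their RNA. With Cre under Aldh1l1, a folate enzyme gene used as a general astrocyte marker, the precipitate holds mainly astrocyte RNA together with some RNA carried over from other cells. PMCA pumps move calcium out of the cell across the plasma membrane, and in astrocytes calcium signals follow G protein-coupled receptors and release from internal stores. The series title ties lowered astrocyte calcium signalling to altered striatal circuits and repetitive behaviour, and the comparison here asks which astrocyte RNAs differ between mice with and without the pump.

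Depth was low and alike in both groups. Summed over listed genes, a library had from 347274 to 686343 reads, with 511217 ± 97109 in control and 494076 ± 147522 in PMCA libraries (mean ± SD, n = 4 each; exact permutation p = 0.857, two-sided), and 1 read was worth 1.59 to 3.22 CPM, the unit of reads scaled to library size. Levels below are log2 CPM, differences are PMCA minus control on that scale, calls were made at adjusted p < 0.05 (limma, Benjamini-Hochberg over the 7094 genes), intervals are 95% intervals of single genes without adjustment, and values per library follow the order of mice given above. The first principal component of the 1916 best measured genes held 32.8% of the variance, and each PMCA library lay above each control library on it. Summed astrocyte markers made up 142124 to 147228 CPM in control and 123209 to 159352 CPM in PMCA libraries, none of the 30 markers was at 0 in all libraries, and Y489 was the lowest. Reads of Xist or of Y-linked genes placed 2 mice of each class in each treatment. Separate mice are the replicates.

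Genes called higher with PMCA included the pump gene Atp2b2, the complement genes C1qc and C1qa, the interferon-induced genes Lgals3bp, Oasl2 and Tgtp1, the sulfatase genes Sulf1 and Sulf2 and the postsynaptic scaffold genes Dlgap2 and Shank3. The p53 targets Cdkn1a and Eda2r were among those called lower. In all, 36 of 7094 genes were called (0.507% of the genes tested), 27 higher (0.381%) and 9 lower (0.127%), and 23 of the 36 differed at least 2-fold, 19 higher and 4 lower. Absolute differences of called genes ran from 0.44 to 3.05. The 2 groups did not overlap for 33 of the 36, against 6.86% of all genes tested, and the exceptions were Tgtp1, Scaf4 and Gprasp1. Calls and overlap were read from the same 8 libraries, so the lack of overlap is a description and no separate support. The median difference was -0.01 over all genes tested, and 49.2% of them were above 0. At an unadjusted p under 0.05 there were 918 of the 7094 genes, 476 higher and 442 lower. That share is the background against which the same counts for single lists below are to be read. A further 41 genes had adjusted p between 0.05 and 0.10.

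The calls rest on letting the variance follow the level of expression. Without that trend limma called 0 genes, with 764 at an unadjusted p under 0.05 and a smallest adjusted p of 0.0505, and voom weights on the recovered reads called 29, of which 18 were among the 36. Without the TMM factors, which correct library sizes for composition, 42 genes were called, 27 higher and 15 lower. The calls that voom kept were those of 9430020K01Rik, Igfbp5, Cdkn1a, Prrc2b, Atp2b2, Sulf2, Peg3, Eef1a1, Lgals3bp, Dlgap2, Tvp23a, Shank3, Ctsz, Oasl2, Mink1, Hey1, Gprasp1 and 1 further gene. A fit over all 16 libraries, input included, called 11 of the 36 and no other gene, namely 9430020K01Rik, Igfbp5, Prrc2b, Atp2b2, Sulf2, Peg3, C1qc, C1qa, Dlgap2, Shank3 and Erc2, all higher with PMCA. Leaving out 1 library at a time gave 14 calls without Y483, 17 without Y482, 20 without Y489, 20 without Y490, 26 without Y486, 29 without Y481, 50 without Y485 and 52 without Y487. Whichever library was left out, 11 genes remained called, among them 9430020K01Rik, Igfbp5, Cdkn1a, Prrc2b, Atp2b2, Sulf2, Peg3, Eef1a1, Lgals3bp and Dlgap2. The other 25 lost their call without 2 or more of the libraries, which are named beside each gene below.

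**Figure D1:**
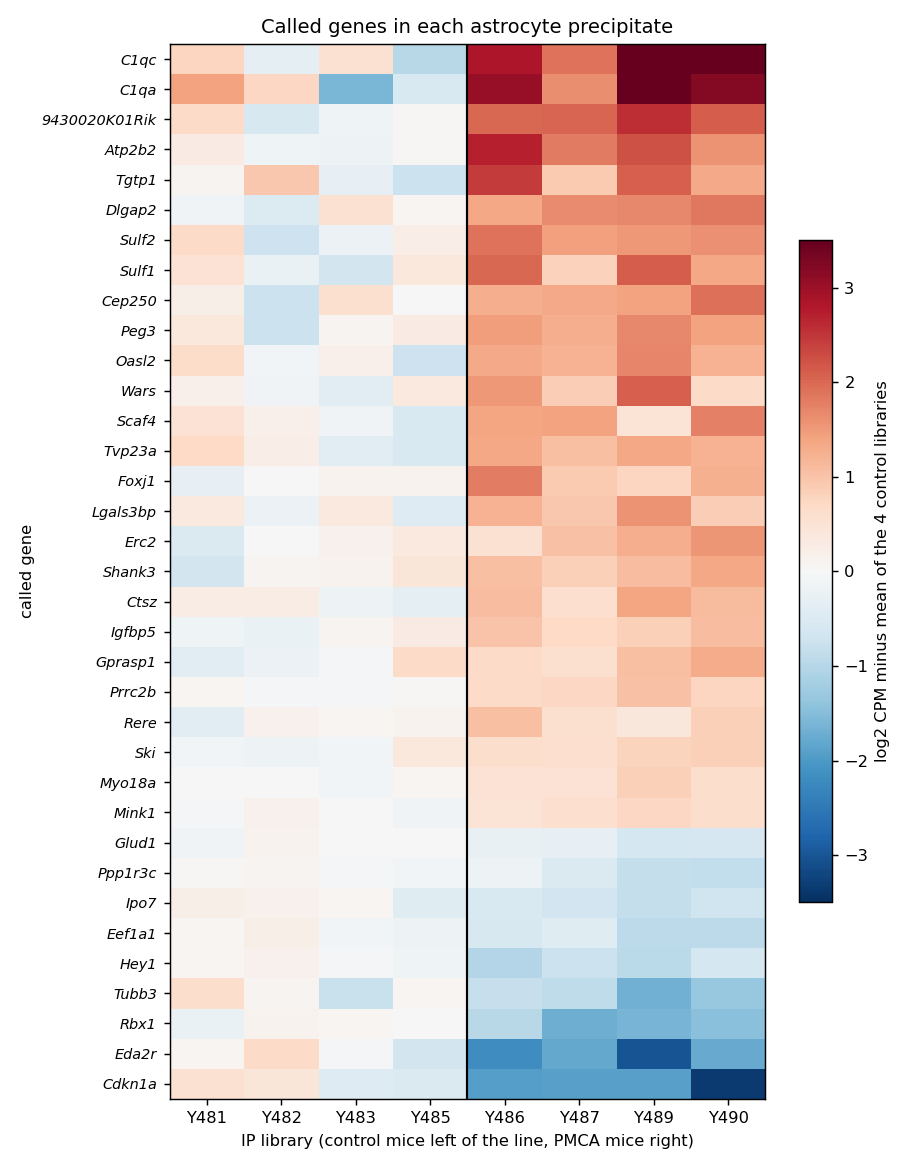
Level of 35 of the 36 called genes (rows) in each of the 8 IP libraries (columns), as log2 CPM minus the mean of the 4 control libraries; red is higher and blue is lower than that mean, and the colour scale ends at 3.5. The 26 genes at the top are red in the PMCA libraries, and C1qc and C1qa are palest there in Y487.

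**Figure D2:**
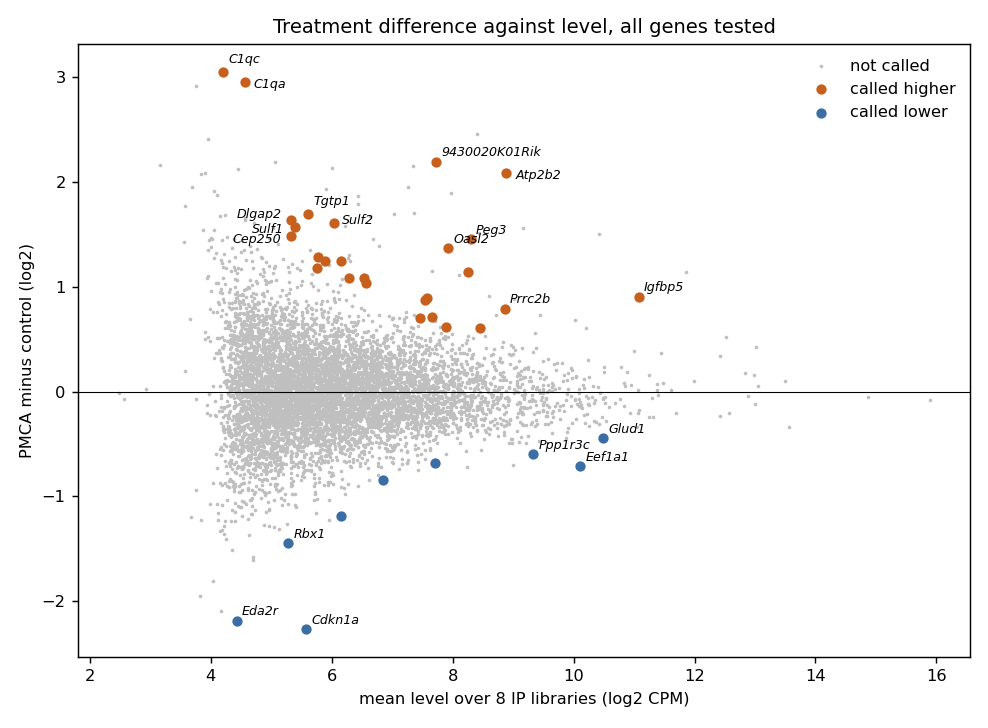
Difference between treatments (PMCA minus control, log2) against the mean level over the 8 IP libraries (log2 CPM) for the 7094 genes tested, with the 27 called higher in orange and the 9 called lower in blue. Called genes at low levels have differences of over 1, while Glud1, among the most abundant, was called at -0.44.

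Atp2b2, the mouse gene of the pump that the virus carries in its human form, was among the called genes that rose at least 2-fold. It lies on chromosome 6 from 113743831 to 114042613 (GRCm38). Its level was 8.12, 7.71, 7.67 and 7.88 log2 CPM in the control libraries and 10.56, 9.66, 10.06 and 9.42 in the PMCA libraries, or 91 to 165 reads against 212 to 950. Every PMCA library stood above every control library, with Y486 the highest and Y490 the lowest of the PMCA mice. The difference was 2.08 (95% interval 1.62 to 2.54, adjusted p = 6.05e-04), and it ran from 1.87 without Y486 to 2.25 without Y490. The labels do not say how reads of the human coding sequence were assigned, so the share of these reads that came from the virus is not known.

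Other genes that carry calcium across the plasma membrane were not called. Of 8 pumps and exchangers tested, 1 was called higher, Atp2b2 itself, and the median difference of the 8 was 0.16. Atp2b1, the widely expressed plasma membrane pump, had 8.49, 8.69, 8.75 and 8.75 log2 CPM in control and 9.07, 8.79, 8.89 and 9.06 in PMCA libraries, a difference of 0.28 (95% interval 0.02 to 0.54, adjusted p = 0.343). Its groups did not overlap, but the gap was small beside that of Atp2b2.

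The machinery that releases calcium inside the cell also gave no call. Of 19 tested genes of calcium stores, release and entry, 0 were called, 12 were above 0 and the median was 0.16, with 1 gene at an unadjusted p under 0.05. Itpr2, the inositol trisphosphate receptor that astrocytes rely on for store release, had a difference of 0.34 (95% interval 0.03 to 0.65, adjusted p = 0.343). The ryanodine receptor gene Ryr2 had 0.53 (95% interval -0.03 to 1.09, adjusted p = 0.421). Among 29 calcium effectors 0 were called, with 6 at an unadjusted p under 0.05, against 918 of all 7094 genes tested. Nfatc1, a transcription factor that calcineurin activates, had 1.14 (adjusted p = 0.111), and Rcan2, an inhibitor of calcineurin, had 0.40 (adjusted p = 0.284).

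9430020K01Rik had the smallest p of all genes. Its current symbol is Jcad, and it codes for a protein of cell junctions that associates with cadherin 5 (chromosome 18 from 4590792 to 4682869, GRCm38). Control libraries had 7.30, 6.08, 6.48 and 6.67 log2 CPM and PMCA libraries 8.65, 8.66, 9.22 and 8.76. The highest control library, Y481, lay below the lowest PMCA library, Y486. The difference was 2.19 (95% interval 1.77 to 2.62, adjusted p = 3.02e-06), and leaving out 1 library moved it between 2.01 and 2.42.

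Peg3, a zinc finger gene expressed from the paternal allele, also rose (chromosome 7 from 6703892 to 6730462). It had 7.95, 6.81, 7.67 and 7.85 log2 CPM in control and 9.02, 8.85, 9.24 and 8.99 in PMCA libraries. The PMCA values lay close together, and the control mouse Y482 stood lowest. The difference was 1.45 (95% interval 1.03 to 1.87, adjusted p = 0.00115). Among 16 imprinted genes tested Peg3 was the 1 called, and 8 of the 16 were above 0 with a median of 0.06. Kcnq1ot1, a long noncoding RNA of an imprinted cluster, had 0.73 (adjusted p = 0.118), and the zinc finger gene Plagl1 had 0.80 (adjusted p = 0.235).

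Igfbp5, a secreted protein that binds insulin-like growth factors, rose at high expression. Its level was 10.48, 10.38, 10.71 and 10.92 in control and 11.61, 11.32, 11.47 and 11.71 in PMCA libraries, without overlap. The difference was 0.91 (95% interval 0.68 to 1.13, adjusted p = 1.36e-05). Igfbp2, a related binding protein, had -1.61 with an adjusted p of 0.122 and overlapping groups. Of 8 tested genes of the insulin-like growth factor system Igfbp5 was the 1 called, 4 were above 0, and the median was 0.10.

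Prrc2b, which codes for a large proline-rich protein, had 8.54, 8.41, 8.41 and 8.49 log2 CPM in control and 9.14, 9.19, 9.49 and 9.21 in PMCA libraries. The control values had an SD of 0.06, and all PMCA values were higher. Its difference was 0.79 (95% interval 0.54 to 1.04, adjusted p = 5.35e-04).

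Both extracellular sulfatases that trim sulfate from heparan sulfate chains rose. Sulf2 had 5.90, 4.52, 5.04 and 5.48 log2 CPM in control and 7.14, 6.67, 6.76 and 6.83 in PMCA libraries. Sulf1 had 5.10, 4.38, 3.97 and 4.98 in control and 6.61, 5.42, 6.73 and 5.95 in PMCA libraries. The groups did not overlap for either gene, and Y487 was the lowest PMCA library for both. The differences were 1.61 for Sulf2 (95% interval 1.06 to 2.16, adjusted p = 0.00115) and 1.57 for Sulf1 (95% interval 0.88 to 2.25, adjusted p = 0.0209). The call of Sulf1 was lost without Y482, without Y483, without Y486 and without Y489 (adjusted p up to 0.103).

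The heparan sulfate list as a whole, with Sulf1 and Sulf2 included, did not share this direction. Of 21 tested, 2 were called higher and 0 lower, 10 were above 0, and the median was -0.01. Sdc3, a cell surface proteoglycan, had 0.36 (adjusted p = 0.308). The lysosomal protease gene Ctsz rose by 1.04 on the log2 scale (adjusted p = 0.0209), with 5.71 to 6.32 log2 CPM in control and 6.64 to 7.44 in PMCA libraries, and lost its call without Y483, Y485, Y486, Y489 or Y490 (adjusted p up to 0.101).

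Of the complement genes, 2 of the 11 tested were called, both higher. All 11 tested complement genes were above 0, with a median of 1.65 against -0.01 over all genes tested, and 8 had an unadjusted p under 0.05. With no filter on low values the list median was 1.28. Genes low in control could pass the filter through the 4 PMCA libraries alone, as C1qc and C1qa did. The share above 0 and the median therefore depend in part on the filter. The called genes were C1qc and C1qa, which code for chains of C1q, the initiator of the classical pathway, and which adjoin on chromosome 4 (from 136889801 to 136892936 and from 136895916 to 136898844).

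C1qc had 3.43, 2.35, 3.21 and 1.69 log2 CPM in control and 5.50, 4.57, 6.25 and 6.56 in PMCA libraries, or 6, 2, 4 and 1 reads against 28, 11, 30 and 29. C1qa had 4.50, 3.81, 1.48 and 2.54 in control and 6.14, 4.70, 7.01 and 6.29 in PMCA libraries, or 13, 6, 1 and 2 reads against 44, 12, 51 and 24. Neither gene overlapped between groups, which followed from passing the filter through the PMCA libraries alone. Y487 stood well below the other PMCA mice for both, close to Y481 for C1qa. The differences were 3.05 for C1qc (95% interval 1.89 to 4.21, adjusted p = 0.00456) and 2.95 for C1qa (95% interval 1.69 to 4.21, adjusted p = 0.0295). The call of C1qc was lost without Y489 and without Y490 (adjusted p up to 0.13), and that of C1qa without any one of Y482, Y483, Y485, Y486, Y489 and Y490 (up to 0.164). Voom called neither.

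C1qb, the third chain, had 4.87, 3.26, 3.97 and 3.76 in control and 6.27, 4.44, 7.26 and 6.65 in PMCA libraries, where Y487 fell among the controls, and was not called (2.19, adjusted p = 0.0799). Serping1, the inhibitor of the first complement component, had 1.78 (adjusted p = 0.228).

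In brain these C1q chains are made mainly by microglia, and markers of microglia moved with them. Of 20 listed microglia markers 9 were tested, all 9 were above 0, 2 were called higher (C1qa and C1qc themselves) and the median was 2.07. Their summed level was 455, 322, 267 and 186 CPM in control and 827, 445, 1492 and 1048 CPM in PMCA libraries, so that Y481 and Y487 overlapped and Y489 was the highest. None of the 20 was at 0 in all libraries. Without the 4 markers that are also on the complement list, the other 16 summed to 150 to 356 CPM in control and 363 to 1088 CPM in PMCA libraries, and 5 of them were tested, all above 0, with 0 called. With all listed genes kept the median of the list was 1.37, and with a minimum of 20 reads it was 1.12. Some of the 9 tested, such as C1qc, C1qa and Selplg, passed the filter through the PMCA libraries alone. How far microglial RNA in the precipitate accounts for the complement and immune differences was not tested, and in bulk RNA more cells of a type and more RNA per cell cannot be told apart.

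Most interferon-induced genes were above 0, with few single calls. Of 39 tested, 37 were above 0, 3 were called higher and 0 lower, and the median was 0.53. That median was 0.20 without the control mouse Y485 and 0.34 without the PMCA mouse Y489. Lgals3bp, a secreted glycoprotein that binds galectin-3, had 8.02, 7.47, 8.02 and 7.23 log2 CPM in control and 8.90, 8.62, 9.27 and 8.54 in PMCA libraries. Oasl2, a relative of the antiviral oligoadenylate synthetases, had 7.89, 7.15, 7.44 and 6.51 in control and 8.56, 8.47, 8.95 and 8.46 in PMCA libraries. Y489 was the highest and Y485 the lowest library for both genes, and the groups did not overlap.

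The differences were 1.14 for Lgals3bp (95% interval 0.76 to 1.53, adjusted p = 0.00311) and 1.37 for Oasl2 (95% interval 0.86 to 1.87, adjusted p = 0.0209), the second lost without Y482, Y483, Y486 or Y490 (adjusted p up to 0.133). Tgtp1, a GTPase induced by interferon, had 4.87, 5.70, 4.47 and 4.01 in control and 7.20, 5.68, 6.86 and 6.09 in PMCA libraries. Its groups overlapped, because Y487 lay just below the control mouse Y482. The difference was 1.69 (95% interval 0.95 to 2.43, adjusted p = 0.0237), lost when Y489, Y486, Y485, Y483 or Y481 was left out (up to 0.135), and the neighbouring copy Tgtp2 is so alike that reads of the 2 genes may have been split. Summed interferon-induced genes reached 3421 to 11151 CPM in control and 6570 to 14441 CPM in PMCA libraries, which overlapped.

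The promoter window of Tgtp1 is shown because it holds a match to the interferon-stimulated response element, the DNA motif read by the factors that interferons activate. The element was searched as GAAANNGAAA on both strands in windows from 250 bases before to 50 after the annotated start (RefSeq, GRCm38.p6). The window lies at chr11:48992197-48992496 on the minus strand, and the match, in capitals, begins 77 bases before the start.
Tgtp1: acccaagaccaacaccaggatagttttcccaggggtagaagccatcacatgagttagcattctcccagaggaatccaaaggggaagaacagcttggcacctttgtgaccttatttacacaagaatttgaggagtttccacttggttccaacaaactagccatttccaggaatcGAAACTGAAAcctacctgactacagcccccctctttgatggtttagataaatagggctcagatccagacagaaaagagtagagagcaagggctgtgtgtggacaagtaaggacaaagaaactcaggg
Such a match was present in 3.44% of 32851 windows, in 3.8% of tested genes with a window, and in 2 of 27 called genes with a window, Tgtp1 and Gprasp1. Oasl2 and Lgals3bp were not among the genes with a match, and whether each had a window is not given here.

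Genes of antigen presentation gave no call, although all had values above 0. Of 18 tested, 18 were above 0, 0 were called, 11 had an unadjusted p under 0.05 and the median was 1.24, or 0.77 without the control mouse Y485 and 0.84 without the PMCA mouse Y489. Cd74, the chaperone of major histocompatibility complex (MHC) class II, had 8.40, 7.26, 6.97 and 6.08 log2 CPM in control and 9.58, 8.67, 10.51 and 9.78 in PMCA libraries. Its groups did not overlap, yet the spread inside each group was wide, and the difference of 2.46 had a 95% interval of 1.01 to 3.90 and an adjusted p of 0.208. The class I gene H2-Q4 had 1.70 (adjusted p = 0.228), and Ciita, the activator of class II genes, had 1.33 (adjusted p = 0.263).

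Genes described in reactive astrocytes were above 0 in 14 of 19 cases with a median of 0.72 and 0 calls, 8 of them at an unadjusted p under 0.05. Gfap, the intermediate filament that rises in reactive astrocytes, had 11.65, 11.29, 11.48 and 10.72 in control and 12.46, 11.91, 13.05 and 12.27 in PMCA libraries. No control library reached a PMCA library, and the difference was 1.14 (95% interval 0.41 to 1.88, adjusted p = 0.232). S1pr3, a sphingosine phosphate receptor, had 2.41 (adjusted p = 0.0975) and the glycosyltransferase gene Ggta1 had 1.02 (adjusted p = 0.0799).

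Several genes of immune and reactive lists were called by voom alone. Voom on the recovered reads called 11 genes that the main test did not, namely B2m, Cd74, Ctss, Gfap, H2-Ab1, H2-D1, H2-K1, H2-Q4, Ly6e, Serpina3n and Serping1, all higher with PMCA. They were singled out after their values were seen. Voom gave Cd74 an adjusted p of 0.00102, Gfap 0.00119 and H2-Q4 0.00364, against 0.208, 0.232 and 0.228 in the main test, with differences of 2.33, 1.12 and 1.61. Y489 was the highest library for the summed complement, interferon, antigen presentation and reactive lists and for microglia markers, and Y485 was the lowest for all of these.

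**Figure D3:**
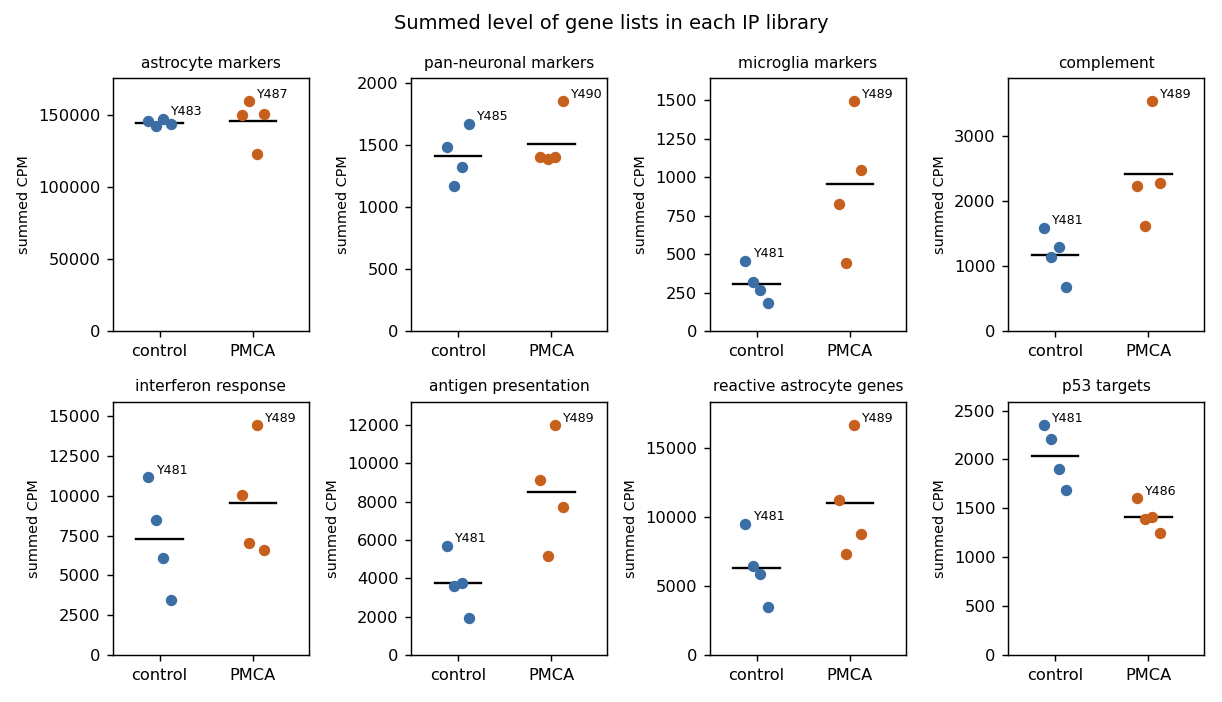
Summed level (CPM) of the listed genes of 8 lists in each IP library, control in blue and PMCA in orange, with the mean of each group as a bar and the highest library of each group named; each vertical axis starts at 0. Y489 is the highest PMCA library in the microglia, complement, interferon, antigen presentation and reactive panels and the lowest for astrocyte markers.

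Postsynaptic scaffold genes, which organise receptors below excitatory synapses, included 2 called genes, both higher. Of 30 tested, 23 were above 0 and the median was 0.23. Dlgap2 had 4.38, 4.03, 5.04 and 4.58 log2 CPM in control and 5.86, 6.18, 6.20 and 6.34 in PMCA libraries. Shank3 had 5.36, 6.08, 6.12 and 6.43 in control and 7.05, 6.84, 7.09 and 7.34 in PMCA libraries. The groups were apart for both genes. Their differences were 1.63 (95% interval 0.99 to 2.27, adjusted p = 0.00640) and 1.08 (95% interval 0.61 to 1.55, adjusted p = 0.0209), and Shank3 lost its call when Y490, Y489, Y483 or Y481 was left out (up to 0.0995). Shank1 had 1.19 (adjusted p = 0.111).

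Erc2, a protein of the presynaptic active zone, rose by 1.09 on the log2 scale (adjusted p = 0.0341), with 5.24, 5.76, 5.88 and 6.08 in control and 6.27, 6.76, 7.01 and 7.28 in PMCA libraries. Its groups did not overlap, and Y490 was the highest, as it was for Dlgap2 and Shank3. The call was lost without Y481, Y482, Y483, Y487, Y489 or Y490 (up to 0.205). Neurons express these scaffolds strongly. Of 16 tested pan-neuronal markers 11 were above 0, 0 were called higher and 1 lower, and the median was 0.17. Their summed level was 1171 to 1670 CPM in control and 1387 to 1850 CPM in PMCA libraries, with Y490 the highest. Projection neuron markers gave 0 calls among 15 tested, with a median of 0.03 and sums of 1833 to 2146 CPM against 1831 to 2395 CPM. The part of neuronal RNA in the scaffold differences was not tested.

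Most targets of the transcription factor p53 had values below 0. Of 19 tested, 3 were above 0 and the median was -0.48, 2 were called lower and 0 higher, and 7 had an unadjusted p under 0.05. With a minimum of 20 reads the median was -0.67. Genes low with PMCA could pass the filter through the control libraries alone, as Eda2r did. The counts and the median therefore depend in part on the filter. The summed list stood at 1683 to 2351 CPM in control and 1248 to 1604 CPM in PMCA libraries, without overlap. Without the 2 called genes, Cdkn1a and Eda2r, it stood at 1583 to 2152 CPM and 1225 to 1567 CPM.

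Cdkn1a, the cell cycle inhibitor p21 and a standard p53 target, had 7.25, 7.15, 6.25 and 6.19 log2 CPM in control and 4.79, 4.81, 4.82 and 3.37 in PMCA libraries (chromosome 17 from 29090979 to 29100722). In reads these were 90, 63, 35 and 28 against 17, 13, 11 and 3. The lowest control library lay well above the highest PMCA library, and Y490 stood apart below the other PMCA mice. Cdkn1a fell by 2.26 on the log2 scale (95% interval -2.96 to -1.57, adjusted p = 5.35e-04), and leaving out 1 library moved the difference between -2.44 and -1.90. Voom kept the call, and the fit over all 16 libraries did not (adjusted p = 0.12).

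Eda2r, a receptor of the tumour necrosis factor family that binds ectodysplasin A2, had 5.58, 6.18, 5.45 and 4.86 in control and 3.35, 3.73, 2.50 and 3.76 in PMCA libraries (chromosome X from 97333837 to 97377234). That is 28, 32, 20 and 11 reads against 6, 6, 2 and 4, without overlap. Eda2r passed the filter through the control libraries alone, so the lack of overlap is no separate support. Its difference was -2.18 (95% interval -3.15 to -1.22, adjusted p = 0.0209), lost without Y481, Y482 or Y483 (up to 0.231), under voom (0.0682) and in the fit over all 16 libraries (0.694). Mdm2, the ubiquitin ligase that p53 induces and that degrades p53, had 7.27, 6.79, 5.98 and 6.24 against 6.01, 5.79, 4.54 and 5.04, which overlapped, and was not called (-1.23, adjusted p = 0.0847).

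The promoter window of Cdkn1a is shown because it holds a match to the paired cores of the p53 half-sites, searched as CATGNNNNNNCATG, which reads the same on both strands. It lies at chr17:29090729-29091028 on the plus strand, with the match in capitals beginning 48 bases before the annotated start.
Cdkn1a: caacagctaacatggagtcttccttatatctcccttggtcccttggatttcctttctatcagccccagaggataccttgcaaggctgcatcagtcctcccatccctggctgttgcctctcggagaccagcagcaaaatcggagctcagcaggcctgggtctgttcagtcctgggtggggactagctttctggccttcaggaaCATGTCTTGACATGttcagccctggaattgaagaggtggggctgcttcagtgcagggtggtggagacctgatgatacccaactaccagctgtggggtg
The cores were found in 0.712% of 32851 windows, in 0.349% of tested genes with a window, and in 1 of 27 called genes with a window, which is Cdkn1a. A match describes the letters of this window and does not show binding.

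The other called genes that were lower have varied roles. Eef1a1, the elongation factor that brings transfer RNA to the ribosome, had 10.54, 10.67, 10.36 and 10.29 log2 CPM in control and 9.89, 10.04, 9.54 and 9.55 in PMCA libraries. The groups were apart, and the difference was -0.71 (95% interval -0.95 to -0.46, adjusted p = 0.00124). Eef1a1 has processed pseudogenes that could share its reads. Of 41 tested initiation and elongation factors it was the 1 called, 14 were above 0, and the median was -0.13. Eif1ax, an initiation factor, had -0.59 (adjusted p = 0.343).

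Tubb3, a beta-tubulin best known from neurons, had 7.36, 6.84, 5.98 and 6.81 in control and 5.93, 5.85, 5.05 and 5.41 in PMCA libraries. The groups were barely apart, at 5.98 in Y483 and 5.93 in Y486. Its difference was -1.19 (95% interval -1.74 to -0.63, adjusted p = 0.0343), lost without Y481, Y482, Y485, Y489 or Y490 (up to 0.137). Of 10 tested tubulins 1 was above 0 and the median was -0.40, with Tubb3 the 1 called. The abundant Tubb2b had -0.29 (adjusted p = 0.296).

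Ipo7, a receptor that carries cargo into the nucleus, had 8.26, 8.20, 8.11 and 7.62 in control and 7.52, 7.38, 7.22 and 7.34 in PMCA libraries, without overlap. Its difference was -0.68 (adjusted p = 0.0444), lost when any library other than Y485 was left out (up to 0.19). Of 25 tested nuclear transport receptors and partners 5 were above 0 and the median was -0.18, with Ipo7 the 1 called. Ran, the GTPase that drives this transport, had 6.32, 6.60, 6.25 and 6.70 against 5.73, 5.49, 5.35 and 5.17, without overlap, and just missed the threshold (-1.03, adjusted p = 0.0511). Tnpo1, another import receptor, had -0.55 (adjusted p = 0.118).

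Rbx1, the RING subunit of cullin ubiquitin ligases, fell by 1.45 on the log2 scale (95% interval -2.08 to -0.81, adjusted p = 0.0209). It had 5.77, 6.13, 6.08 and 6.03 in control and 5.02, 4.29, 4.37 and 4.54 in PMCA libraries, and the call was lost without Y482 or Y483 (up to 0.11). Control values were close together and every PMCA value was lower. Of 41 tested proteasome and cullin ligase genes Rbx1 was the 1 called, 17 were above 0 and the median was -0.04. Psmb6, a catalytic proteasome subunit, had -0.80 (adjusted p = 0.0685).

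Hey1, a transcription factor induced by Notch receptors, had 7.34, 7.42, 7.20 and 7.13 in control and 6.24, 6.51, 6.34 and 6.65 in PMCA libraries. All control libraries lay above all PMCA libraries. Its difference was -0.84 (95% interval -1.23 to -0.45, adjusted p = 0.0341), lost without Y481, Y482, Y483, Y486 or Y489 (up to 0.153). The Notch list as a whole, with Hey1 included, did not follow. Of 19 tested 10 were above 0, the median was 0.02, and Hey1 was the 1 called. The coactivator Maml2 had 0.67 (adjusted p = 0.191) and the helix-loop-helix gene Id3 had -0.53 (adjusted p = 0.228).

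**Figure D4:**
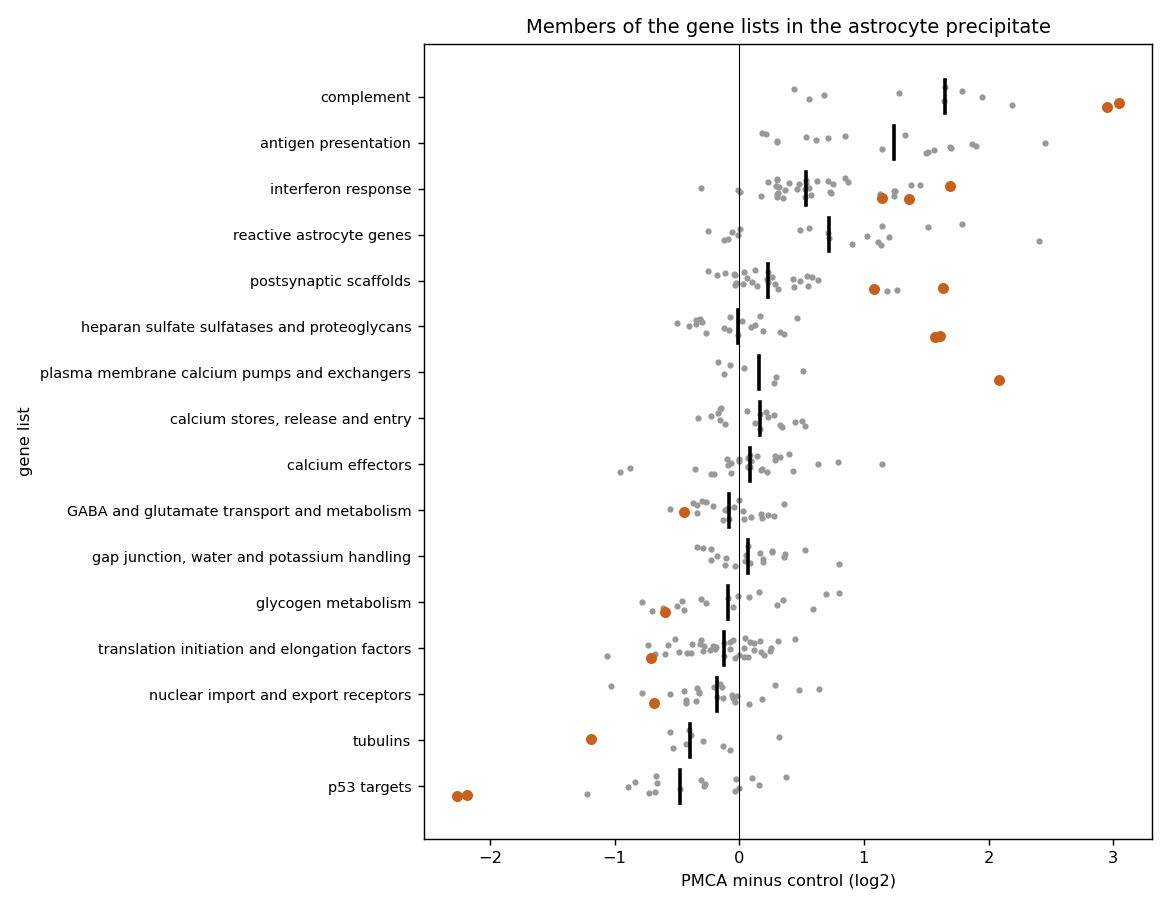
Difference between treatments (PMCA minus control, log2) of each tested member of 16 gene lists, with called genes in orange, other members in grey and the median of each list as a vertical bar. Complement members all lie to the right of 0, with a median of 1.65, and 3 of 19 p53 targets do, with a median of -0.48.

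Among genes of astrocyte metabolism, Glud1 and Ppp1r3c fell. Glud1, the mitochondrial glutamate dehydrogenase, had 10.58, 10.84, 10.73 and 10.71 log2 CPM in control and 10.44, 10.42, 10.09 and 10.13 in PMCA libraries. The groups did not overlap, and the difference was -0.44 (95% interval -0.66 to -0.23, adjusted p = 0.0454), lost without Y482, Y483, Y485, Y489 or Y490 (up to 0.231). Of 22 tested genes that move or convert GABA and glutamate Glud1 was the 1 called, 8 were above 0, and the median was -0.09. Aldh5a1, which ends GABA breakdown, had -0.56 (adjusted p = 0.0636), and Glul, the glutamine synthetase, had -0.34 (adjusted p = 0.284).

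Ppp1r3c, a subunit that brings protein phosphatase 1 to glycogen, had 9.67, 9.73, 9.60 and 9.53 in control and 9.46, 9.12, 8.80 and 8.76 in PMCA libraries. The gap between groups was narrow, from 9.53 in Y485 to 9.46 in Y486. Its difference was -0.60 (95% interval -0.87 to -0.33, adjusted p = 0.0237), lost without Y481, Y482, Y483, Y489 or Y490 (up to 0.152). Of 19 tested glycogen genes Ppp1r3c was the 1 called, 7 were above 0 and the median was -0.09. Ugp2, which makes the sugar donor for glycogen, had -0.46 (adjusted p = 0.0951).

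The transporters and channels that define mature astrocytes gave no call among the 4 given here. Slc1a2, the main glutamate transporter, differed by -0.08 (95% interval -0.25 to 0.09, adjusted p = 0.721), and Slc1a3, the second one, by 0.18 (95% interval 0.00 to 0.36, adjusted p = 0.383). The connexin gene Gja1 differed by -0.04 (95% interval -0.25 to 0.18, adjusted p = 0.920). Slc6a11, the GABA transporter GAT-3, had 9.82, 10.23, 10.45 and 10.09 in control and 9.99, 10.28, 9.93 and 10.53 in PMCA libraries, which overlapped fully. Its difference was 0.04, with a 95% interval of -0.25 to 0.32. The wider list of 30 astrocyte markers, all tested, had 12 above 0, a median of -0.12 and 12 at an unadjusted p under 0.05. Ppp1r3c, lower with PMCA, was the 1 called member of that list.

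Rab11a, a GTPase of recycling endosomes, had an interval of -0.94 to -0.13 around -0.53, without overlap between groups and with an adjusted p of 0.252. Of 22 endosomal recycling genes 0 were called, with 2 at an unadjusted p under 0.05 and a median of -0.03. Of 21 genes of gap junctions, water and potassium handling 0 were called, with a median of 0.07 and 3 at an unadjusted p under 0.05. Among these, Atp1b2, a sodium pump subunit of astrocytes, had 0.37 (adjusted p = 0.157) and its regulator Fxyd1 had 0.53 (adjusted p = 0.173). Of 13 G protein-coupled receptors 0 were called, with a median of -0.14 and 2 at an unadjusted p under 0.05, and the GABA-B receptor gene Gabbr1 had -0.28 (adjusted p = 0.261).

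Secreted genes that act on synapses gave 0 calls of 26, with 3 at an unadjusted p under 0.05 and a median of -0.05. Clu, an abundant secreted chaperone, had 12.25, 12.22, 12.35 and 12.21 in control and 12.71, 12.50, 12.41 and 12.73 in PMCA libraries, without overlap, and was not called (0.33, adjusted p = 0.0799). Apoe, the lipid carrier of astrocytes, had 0.42 (adjusted p = 0.286). Cholesterol genes gave 0 calls of 30, with 9 at an unadjusted p under 0.05 and a median of -0.12, and Insig1, which retains the sterol sensor, had -0.68 (adjusted p = 0.0799). Glycolysis genes gave 0 calls of 19, with 7 at an unadjusted p under 0.05. Genes of the unfolded protein and integrated stress responses gave 0 of 21 with 5, and heat shock genes 0 of 22 with 1. Nuclear-retained noncoding RNAs gave 0 of 9 with 1, and immediate early genes 0 of 4 with 1, all by limma.

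Foxj1, the transcription factor that builds motile cilia, had 4.87, 5.19, 5.30 and 5.30 log2 CPM in control and 6.94, 6.09, 5.93 and 6.40 in PMCA libraries, without overlap. It rose by 1.17 on the log2 scale (95% interval 0.61 to 1.74, adjusted p = 0.0436), and the call was lost without Y481, Y482, Y483, Y486 or Y490 (up to 0.196). Ependymal cells, which line the ventricle beside the striatum, express Foxj1, and the 4 other ependymal markers in the data summed to 11.8 to 38.8 CPM in control and 9.7 to 76.4 CPM in PMCA libraries, which overlapped. Of these 4, only Rarres2 had enough reads for a test, and it differed by 0.018 (95% interval -1.31 to 1.35, adjusted p = 0.993). The part of ependymal RNA in this difference was not tested. Summed oligodendrocyte markers were 815 to 1026 CPM against 799 to 974 CPM, precursor markers 70.8 to 99.2 against 87.5 to 152, macrophage and lymphocyte markers 33.6 to 148 against 65.3 to 278, endothelial markers 224 to 262 against 171 to 256, and mural and fibroblast markers 114 to 192 against 146 to 226. Each of these pairs of ranges overlapped.

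The remaining 9 called genes were all higher and have varied roles. Mink1, a kinase of the Ste20 family, had 8.10, 8.30, 8.18 and 8.03 in control and 8.64, 8.75, 8.88 and 8.76 in PMCA libraries. Myo18a, an unconventional myosin, had 7.59, 7.59, 7.51 and 7.66 in control and 8.08, 8.09, 8.42 and 8.22 in PMCA libraries. Both had tight groups that were clearly apart, with differences of 0.60 (adjusted p = 0.0209) and 0.61 (adjusted p = 0.0444). Mink1 lost its call when Y490, Y489, Y483 or Y481 was left out (up to 0.0804), and Myo18a without Y481, Y482, Y483, Y486, Y489 or Y490 (up to 0.154).

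Rere and Ski both code for transcriptional corepressors. Rere had 6.95, 7.47, 7.38 and 7.44 against 8.37, 7.87, 7.71 and 8.13, a difference of 0.71 (adjusted p = 0.0447). Ski, which restrains TGF-beta signalling, had 7.01, 6.92, 7.02 and 7.48 against 7.72, 7.69, 7.88 and 7.94, a difference of 0.70 (adjusted p = 0.0458). Neither gene overlapped between groups. The call was lost without Y481, Y482, Y483, Y486 or Y490 for Rere (up to 0.177), and when any library other than Y485 was left out for Ski (up to 0.188).

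Cep250, which links centrioles, and Wars, the transfer RNA synthetase for tryptophan, had larger differences on fewer reads. Cep250 had 4.79, 3.81, 5.13 and 4.58 against 5.86, 5.90, 5.98 and 6.51, a difference of 1.48 (adjusted p = 0.0237). Wars had 4.73 to 5.48 against 6.63, 6.00, 7.22 and 5.79, a difference of 1.28 (adjusted p = 0.0367). The groups stayed apart for both, with 11.8 and 16.5 reads per control library. Cep250 lost its call without Y482, Y489 or Y490 (up to 0.152), and Wars without Y481, Y482, Y483, Y486 or Y489 (up to 0.195).

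Scaf4, which binds the tail of RNA polymerase II, had 5.77, 5.43, 5.13 and 4.73 against 6.63, 6.67, 5.74 and 7.02. Y489 fell just below the control mouse Y481, so the groups overlapped, and the difference was 1.25 (adjusted p = 0.0344), lost without Y482, Y483, Y485, Y486, Y487 or Y490 (up to 0.205). Tvp23a, a vesicle protein of the Golgi, had 6.23, 5.76, 5.13 and 4.98 against 6.87, 6.58, 6.89 and 6.74, a difference of 1.24 (adjusted p = 0.0206), lost without Y483, Y486 or Y489 (up to 0.0894). Gprasp1, which sorts receptors to the lysosome, had 6.72, 6.92, 7.05 and 7.80 against 7.78, 7.69, 8.18 and 8.42. Its control mouse Y485 exceeded both Y486 and Y487, and the difference of 0.90 had the highest adjusted p of the called genes (0.0486), lost without Y481, Y482, Y483, Y486, Y489 or Y490 (up to 0.231).

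The same treatment contrast in whole striatal lysate (input) of the 8 mice was set beside these values. Of 5895 genes tested in input 2 were called (0.0339%), the complement gene C4b, higher by 1.36 (adjusted p = 0.0112), and the MHC class I gene H2-T23, higher by 2.05 (adjusted p = 0.0464), both named after their values were seen. In the precipitate C4b had 0.68 (adjusted p = 0.315) and H2-T23 had 1.15 (adjusted p = 0.518). Of the 36 genes called in the precipitate 30 could be tested in input, and 0 of these were called there. Of the 30, 7 had an unadjusted p under 0.05 and 22 had the same sign. The matching shares over all genes tested in both fractions are not given here, and both fractions came from the same mice. These counts are therefore a description only.

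The difference between the precipitate and input effects was itself called for 3 of 7094 genes (0.0423%). These were 9430020K01Rik (difference of effects 2.30, adjusted p = 2.91e-05), Atp2b2 (2.11, adjusted p = 2.32e-05) and Peg3 (1.56, adjusted p = 0.0119). In input, 9430020K01Rik stood at 9.09 ± 0.17 and 8.97 ± 0.20 log2 CPM, Atp2b2 at 10.58 ± 0.05 and 10.55 ± 0.11, and Peg3 at 8.66 ± 0.17 and 8.56 ± 0.26 in control and PMCA mice (SD, n = 4 each). All 3 genes were less abundant in the control precipitate than in control lysate, with precipitate minus input of -2.45, -2.74 and -1.09 on the log2 scale.

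By contrast several called genes had nearly equal effects in both fractions. Igfbp5 differed by 0.77 in input and 0.91 in the precipitate, Lgals3bp by 1.06 and 1.14, and Oasl2 by 1.54 and 1.37. Their differences of effects were not called (adjusted p from 0.952 to 0.992). C1qa differed by 1.17 in input and C1qc by 0.96, against 2.95 and 3.05 in the precipitate, and these differences of effects were not called either (adjusted p = 0.908 and 0.755). Cdkn1a, Eda2r, Tgtp1, Sulf1, Cep250 and Foxj1 had too few input reads for a test.

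**Figure D5:**
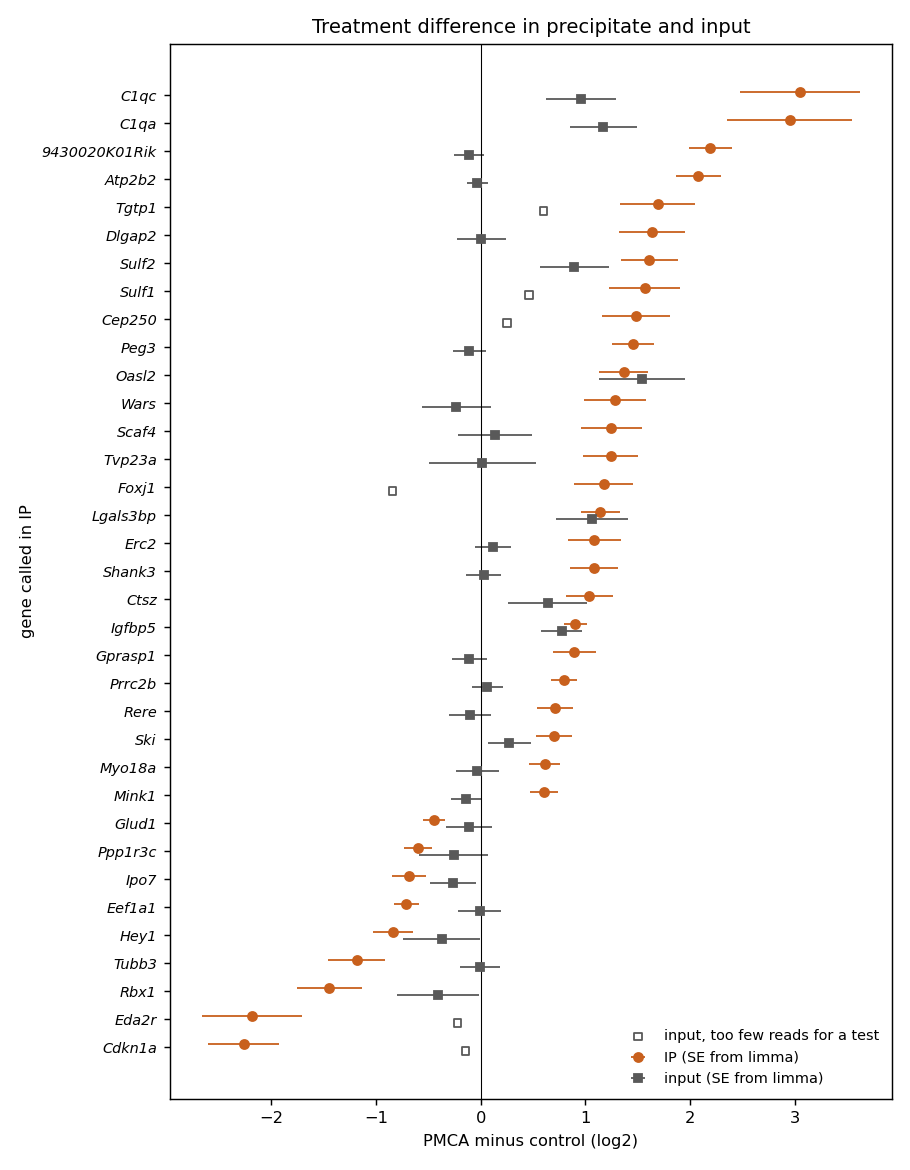
Difference between treatments (PMCA minus control, log2) of 35 of the 36 called genes in the precipitate (orange circles) and in input (grey squares), with the SE from limma as bars; open squares are the 6 genes with too few input reads for a test. For 9430020K01Rik, Atp2b2 and Peg3 the input values are near 0, and for Igfbp5, Lgals3bp and Oasl2 they are close to those of the precipitate.

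The called genes differed in how far the precipitate enriches them. In control mice 11 of the 36 were over 1 log2 unit higher in the precipitate than in input, among them Igfbp5, Cdkn1a, Lgals3bp, Oasl2, Eda2r, Ppp1r3c, Tgtp1, Hey1, Foxj1 and Glud1. Control input held a mean of only 1 read of Eda2r, 1.5 of Tgtp1, 3.75 of Foxj1 and 5.5 of Cdkn1a. The enrichment of these genes is therefore poorly measured. Another 11 were over 1 log2 unit lower, namely 9430020K01Rik, Atp2b2, Peg3, C1qc, C1qa, Dlgap2, Shank3, Mink1, Erc2, Tubb3 and Gprasp1. Of the second group all but Tubb3 were higher with PMCA in the precipitate, as were 27 of all 36 called genes. The shares of all tested genes that differ this far between precipitate and input are not given here. These levels share the control precipitates with the treatment contrast, so they are given as a description.

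Genes called higher had a longer median span than genes called lower. The annotated span (RefSeq, GRCm38.p6) had a median of 33228 bases over the 6770 tested genes with a match, 47760 over 26 genes called higher and 10054 over the 9 called lower. In 5 groups of 1354 tested genes, from the shortest to the longest, the median difference was -0.05, -0.04, -0.02, -0.0033 and 0.06 log2 units. In the same order the groups held 6, 2, 5, 7 and 6 genes called higher. Genes called lower numbered 6, 0, 3, 0 and 0, so the contrast of medians rests on few genes. The part of length in single calls was not tested.

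Depth set what could be seen. The typical 95% interval of a gene reached 0.81 log2 units to either side below 20 mean reads, 0.55 from 20 to 50, 0.39 from 50 to 100, 0.30 from 100 to 200, 0.25 from 200 to 500 and 0.22 above that. Of 2532 tested genes below 20 mean reads 3 were called, and of 86 at 500 reads or more 3 were called. The labels name no molecular identifiers, so reads may be copies of the same molecule.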

How the data were processed

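Stranded total RNA libraries depleted of ribosomal RNA were made from input and IP of each mouse and sequenced on an Illumina HiSeq4000, per the labels' protocols. The submitters' processing notes name STAR, HTSeq, edgeR, limma and the mm10 build, without versions, roles or settings. The authors deposited log2 CPM per library, scaled to an effective library size (TMM factors). Whole reads were recovered from these values (100% within 0.01 reads, largest deviation 9.06e-10), after removal of a prior that averaged 0.25 reads. Because the deposited unit is log2, no count model was run.

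The 8 IP libraries were fitted with limma (3.58.1, R 4.3.3), treatment as the only term, and moderated with a trend on expression level and robust weighting through statmod 1.5.0, with Benjamini-Hochberg adjustment over all genes tested. The fit was tested on simulated data. Labels were read with jsonlite 2.0.0. IP against input effects were fitted over all 16 libraries. All single-gene adjusted p-values come from limma.

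Members and gene lists were chosen with earlier results of these data known, so lists are described by counts and medians, and the permutation test planned for marker lists is not given. Named genes were Atp2b2, every called gene but 1 that is not reported here, Slc6a11, Rab11a, and from each list up to 3 members with the smallest p and 2 with the highest level. Alternatives were the filter, normalization, prior count, moderation, voom, all 16 libraries, an Xist class covariate and leaving out each library. Of the gene names, 21 look like dates and 2 rows share such a name. They were kept in the fit and are not named.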

Additional observations from a re-analysis of the deposited data

Results flagged for a closer look

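Among 202 groups of 4 libraries examined, 5 held a library far from the other 3, where chance alone gives about 1 in 20. Cdkn1a was at 3.37 log2 CPM in PMCA mouse Y490 against 4.79 to 4.82 in the other PMCA mice, on 3 reads. Gpr37l1, an astrocyte receptor gene, was at 10.52 in PMCA mouse Y487 against 10.08 to 10.13. Atp1b2 was at 11.87 in PMCA mouse Y490 against 11.52 to 11.56. Psmb6 was at 7.43 in control mouse Y482 against 7.06 to 7.09. Summed pan-neuronal markers were at 1850 CPM in PMCA mouse Y490 against 1387 to 1404 CPM. The effect of PMCA in the precipitate exceeded that in input by 2.30 for 9430020K01Rik, 2.11 for Atp2b2 and 1.56 for Peg3 on the log2 scale, each called in the test of the difference itself.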

How the results depend on the processing

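Counts of called genes, 36 in the main test with 27 higher and 9 lower, depended most on the moderation. Plain moderation gave 0, 0 and 0 (764 genes at an unadjusted p under 0.05) and robust moderation without the trend, added after seeing the data, 0, 0 and 0 (761 genes). The trend without robust moderation, also added, gave 48, 41 and 7. The fit over all 16 libraries gave 11, 11 and 0, all among the 36. Voom gave 29, 26 and 3, no TMM factors 42, 27 and 15, and the Xist class as covariate 54, 35 and 19. No filter, a minimum of 20 reads and a prior count of 2 reads gave 32, 31 and 38. Without 1 library the counts ran from 14 to 52 in all, 11 to 36 higher and 2 to 18 lower. With mouse as replicate block, which pairs the input and IP of 1 mouse, 3 genes had a called difference of effects, as without it. The 2 treatments were given to different mice, so the main comparison has no pairing. The median of all genes stayed within 0.1 of its main value under these alternatives, each left-out library included.

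List medians moved with the filter. With no filter they were -0.15 for endosomal recycling, 0.22 for insulin-like growth factors, 0.090 for immediate early genes and 1.37 for microglia markers. With 20 reads they were -0.67 for p53 targets, -0.078 for heparan sulfate genes, 0.12 for immediate early genes and 1.12 for microglia markers. Without 1 library, medians ran from 0.048 to 0.18 for calcium stores, -0.083 to 0.11 for Notch, -0.076 to 0.035 for heparan sulfate, -0.11 to 0.17 for imprinted, -0.21 to -0.076 for cholesterol, -0.10 to 0.025 for glycolysis, -0.16 to 0.0072 for unfolded protein, -0.18 to -0.031 for proteasome and cullin and -0.25 to -0.021 for oligodendrocyte genes. The difference in read totals ran from -81231 to 31792 reads. Uncalled Slc6a11 ran from -0.080 to 0.14, Slc1a2 from -0.17 to 0.0099 and Gja1 from -0.14 to 0.067. The causes of these shifts were not tested.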
